A study of Drosophila melanogaster with 135 samples.

Results

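MicroRNAs (miRNAs) of fly muscle were measured in wild-type (WT) flies and in 2 double mutants of PRC2, the complex that places H3K27me3 on chromatin. The members are all 52 miRNA rows of the small RNA tables, and no row was left out. The series holds 135 samples, of which 3 are small RNA libraries, 1 per genotype, all from muscle of male flies aged 30d. WT is the line 5905 (w1118). The double mutants carry CRISPR deletions that are heterozygous at both genes, labelled Pcl421; Su(z)12253 in *Pcl Su(z)12* and esc289; E(z)239 in *esc E(z)*. Each gene is represented by 1 allele, and crossing into 5905 gave the mutants the background of WT. RNA of 20 to 29 nt was cut from a gel before the libraries were made. Both comparisons with WT use the same WT library. With 1 library per genotype there is no replicate spread and no test, and the intervals below cover counting error only, on reads that are not independent molecules because PCR copies were not marked. Other mRNA libraries of muscle from the same genotypes gave the levels of host genes, processing factors and targets as the authors' means.

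An miRNA is cut from a hairpin in a longer transcript, first in the nucleus by Drosha and Pasha and then in the cytoplasm by Dicer-1. A single arm of the duplex, called 5p or 3p after its side of the hairpin, is loaded into Argonaute-1 and guides it to mRNAs that pair with the seed, bases 2 to 8 of the miRNA. miRNAs with the same seed are thought to reach overlapping targets. miR-1 is the muscle miRNA of animals from worms to mammals, and in flies let-7, miR-34 and miR-277 have been studied in adult aging or metabolism.

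The sequences of the seed families and of several miRNAs that differed between libraries are shown, while miR-986-5p and miR-988-5p, which also differed, are described by their values only. The sequences are RefSeq mature sequences of the assembly dm6, printed 5′ to 3′ with the seed in capitals. The seed AUCACAG was shared by 4 distinct sequences of the miR-2 family, which in flies represses the cell death genes *rpr*, *grim* and *hid*, and the seed CUUUGGU by the 3 miR-9 sequences. The seed CAGGUAC was shared by miR-275-3p and miR-306-5p, which lie in different clusters.
miR-2a-1-3p: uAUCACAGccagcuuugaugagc
miR-2b-1-3p: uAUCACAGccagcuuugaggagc
miR-13b-1-3p: uAUCACAGccauuuugacgagu
miR-11-3p: cAUCACAGucugaguucuugc
miR-9a-5p: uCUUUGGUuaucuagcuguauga
miR-9b-5p: uCUUUGGUgauuuuagcuguaug
miR-9c-5p: uCUUUGGUauucuagcuguaga
miR-275-3p: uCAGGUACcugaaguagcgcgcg
miR-306-5p: uCAGGUACuuagugacucucaa
miR-279-3p: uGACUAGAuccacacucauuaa
miR-996-5p: gCGAACAUggaucuagugcacg
miR-10-5p: aCCCUGUAgauccgaauuuguu
miR-316-3p: aCAGGAAAgggaaaaaggcgua
miR-305-5p: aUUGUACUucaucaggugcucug

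The 3 miRNAs of the let-7 complex, which are cut from 1 transcript, are shown because their levels separated in *esc E(z)*, and miR-1-3p because it was the most abundant. The hairpins of miR-279 (chr3R:29215585-29215684, plus strand) and of miR-10 (chr3R:6809506-6809582, minus strand) belong to the highest and the lowest ratio in that mutant, and are printed whole with the listed arm in capitals.
let-7-5p: uGAGGUAGuagguuguauagu
miR-100-5p: aACCCGUAaauccgaacuugug
miR-125-5p: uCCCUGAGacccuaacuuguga
miR-1-3p: uGGAAUGUaaagaaguauggag
hairpin of miR-279: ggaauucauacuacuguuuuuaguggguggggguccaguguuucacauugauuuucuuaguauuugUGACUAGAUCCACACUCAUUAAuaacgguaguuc
hairpin of miR-10: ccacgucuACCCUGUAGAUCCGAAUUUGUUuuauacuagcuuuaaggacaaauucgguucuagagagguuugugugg

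Among the 52 listed rows, muscle miRNA was dominated by very few species, in nearly the same order in all 3 libraries. Values are normalised counts, the reads of an miRNA divided by 1 size factor per library. The 52 rows held 945804 reads in WT, 862558 in *Pcl Su(z)12* and 1074418 in *esc E(z)*, and the lowest row had 36, 42 and 43 reads, respectively. The share of the summed normalised counts held by the 3 most abundant miRNAs was 74.3% in WT, 75.9% in *Pcl Su(z)12* and 73.7% in *esc E(z)*. The 10 most abundant held 93.0%, 93.2% and 92.0%. The highest row exceeded the lowest by 8394-fold in WT, 5879-fold in *Pcl Su(z)12* and 8346-fold in *esc E(z)*. The same 9 miRNAs were among the 10 most abundant in every library, and 11 were among them in at least 1. The levels in each library fell away steeply from miR-1-3p to rows of 32.4 to 41.9 normalised counts, as the plot of all levels shows.

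**Figure D1:**
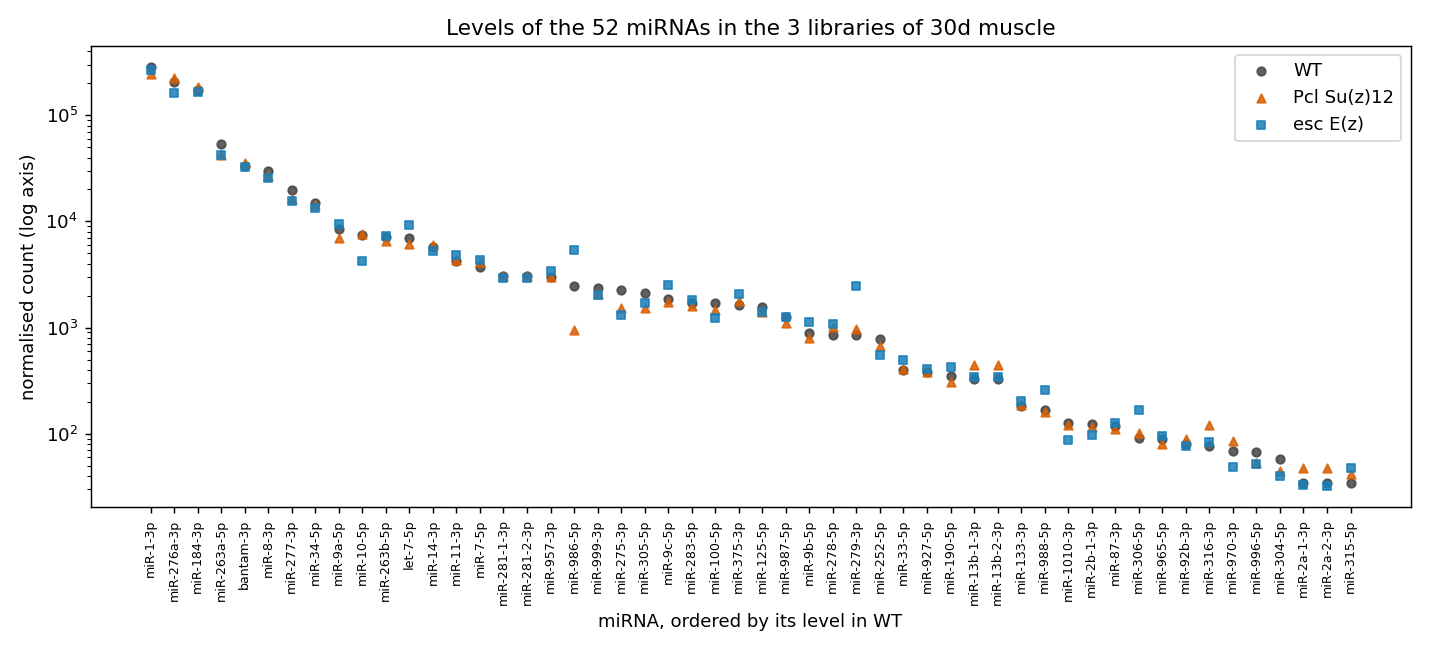
Normalised count (log axis) of each of the 52 miRNAs in the 3 small RNA libraries, ordered by the level in WT; each point is 1 library. The 3 points of most miRNAs lie close together, and those of miR-986-5p (2470, 942 and 5351) and miR-279-3p (850, 978 and 2478) stand apart.

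miR-1-3p, which in flies acts in muscle growth and is made in muscle cells, was the most abundant, at 285977 normalised counts in WT, 246471 in *Pcl Su(z)12* and 270012 in *esc E(z)*. It made up 31.9%, 28.6% and 33.4% of the counts. miR-276a-3p, known in flies for a part in olfactory memory, was at 207029, 222459 and 161121. miR-184-3p, known from the female germline and the embryo, was at 172341, 184683 and 164826, so that miR-276a-3p was above it in WT and *Pcl Su(z)12* and below it in *esc E(z)*. The log2 ratio of miR-276a-3p in *esc E(z)* against WT was -0.36 (95% interval of counting error -0.37 to -0.35). At these counts the interval is narrow, and whether such differences exceed the spread between flies cannot be read from 1 library each. With the libraries scaled to the same total, the log2 ratio in *esc E(z)* turned from -0.08 to 0.06 for miR-1-3p and from -0.06 to 0.08 for miR-184-3p.

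The next positions were held by the same 5 miRNAs in the same order in all 3 libraries. miR-263a-5p, which protects sensory organs from cell death, was at 53633 in WT and at 41919 and 41893 in *Pcl Su(z)12* and *esc E(z)*, with a log2 ratio of -0.36 in each. bantam-3p, which promotes tissue growth and represses *hid*, was at 33087, 35319 and 32614, the smallest ratio of highest to lowest library among these. miR-8-3p, the fly member of the miR-200 family, was at 29907, 26824 and 25665. miR-277-3p, which acts in fly metabolism of branched-chain amino acids, was at 19848, 16159 and 15547. miR-34-5p, which in flies protects the aging brain, was at 15078, 14311 and 13442. With the deposited size factors, each of these except bantam-3p was lower in both mutants than in WT. miR-9a-5p, which limits the number of sensory bristle precursors, followed at 8505, 6934 and 9473, lowest in *Pcl Su(z)12*. miR-10-5p was at 7389 and 7646 in WT and *Pcl Su(z)12* and at 4225 in *esc E(z)*, where it dropped from rank 10 to rank 16, and let-7-5p took rank 10.

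Besides the 8 miRNAs of at least 10000 normalised counts in WT, 20 lay between 1000 and 10000, 14 between 100 and 1000, and 10 under 100. Those under 100 rested on 36 to 97 reads in WT, and the interval of counting error excluded equality with WT only for miR-316-3p in *Pcl Su(z)12* and miR-306-5p in *esc E(z)*. The neuronal miRNA miR-124 is not among the 52 rows. How these rows were selected is not given, and the lowest has 36 reads in WT. Whether miR-124 was present in the tissue therefore cannot be read from them. In the mRNA tables the muscle genes *Mhc*, *up*, *wupA* and *Mlc2* had authors' means of 5201 to 21709 in the WT of the *Pcl Su(z)12* table. The nerve genes *elav*, *nSyb* and *Syt1* (360 to 1916) and the hemocyte gene *Hml* (3375) were also present, and *FASN1*, which fat body expresses strongly, was at 27166. The testis genes *bam*, *dj* and *Mst87F* were between 0.816 and 5.42 in WT and mutant of that table. *Act88F*, the flight muscle actin, was at 2081 in WT and 773 in *Pcl Su(z)12*, and at 1840 and 1829 in the *esc E(z)* table. The other 4 muscle genes had log2 ratios of -0.04 to 0.06 in *Pcl Su(z)12* and of 0.10 to 0.35 in *esc E(z)*. *ninaE*, the rhodopsin of photoreceptors, was at 98.0 and 138, and at 193 and 46.1, in the same order. Of the 3 fat body genes, *Lsp2*, a storage protein gene, was at 1201 and 755, and at 741 and 499, *FASN1* at 27166 and 26777, and at 18002 and 14189, and the yolk protein gene *Yp1* at 14.6 and 16.3, and at 9.23 and 5.91. In bulk tissue, fewer cells of a type and less RNA per cell cannot be told apart. These are other libraries than the small RNA ones, and the part of tissue composition in the miRNA values was not tested.

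Only 1 arm was listed for every hairpin. RefSeq annotates a mature RNA on both arms of all 52 hairpins, whereas 0 hairpins had both arms in the tables, so the ratio of the arms could not be followed. The 5p arm was listed for 26 and the 3p arm for 26. The 3p arms held 86.7% of the counts in WT, 88.2% in *Pcl Su(z)12* and 86.4% in *esc E(z)*, mostly through miR-1, miR-276a and miR-184. The median log2 ratio of the 5p arms was -0.16 in *Pcl Su(z)12* and 0.09 in *esc E(z)*, and that of the 3p arms was 0.05 and -0.07. A U was the first base of 36 of the 52 mature sequences, of 23 of the 3p and 13 of the 5p arms, and 8 began with A, 4 with C and 4 with G. The mature RNAs were 21 to 24 nt long, and 25 were of 22 nt.

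The 52 hairpins lay on 5 chromosome arms, with 17 on 2L, 10 on 2R, 9 on 3L, 11 on 3R and 5 on X. In 23 cases the hairpin lay in an intron of a protein-coding gene on the same strand, and in 21 only in an exon of a non-coding transcript, most of them the annotated primary transcript of the miRNA. A further 3 overlapped an exon of a protein-coding gene, 1 lay in an intron of an antisense transcript and 4 had no gene on their strand. The hairpins in exons of non-coding transcripts held 95.4% of the counts in WT, 95.6% in *Pcl Su(z)12* and 94.3% in *esc E(z)*, and those in introns of protein-coding genes 3.78%, 3.67% and 4.80%.

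3 mature sequences were listed more than once, because their hairpins have copies. miR-13b-1-3p and miR-13b-2-3p, miR-2a-1-3p and miR-2a-2-3p, and miR-281-1-3p and miR-281-2-3p had the same mature sequence and the same reads in both rows, apart from 1 read in *esc E(z)*. The copies cannot be told apart by these reads, so the 52 rows hold 49 distinct sequences and 43 seeds. The level of a single copy is uncertain. If a read was counted in both rows of a pair, the totals and shares over the 52 rows count it in each.

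Most miRNAs were at similar levels in *Pcl Su(z)12* and WT. The median log2 ratio of the 52 miRNAs was -0.05, with quartiles of -0.19 and 0.11, and 37 miRNAs were within 1.2-fold. Past 1.5-fold were 2 of the 52 (3.85%), with miR-986-5p lower and miR-316-3p higher. The next miRNA, just inside 1.5-fold, was miR-275-3p (log2 -0.57). The interval of counting error lay wholly on 1 side of equality for 29 of the 52, which says that reads were plentiful and not that the genotypes differed.

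**Figure D2:**
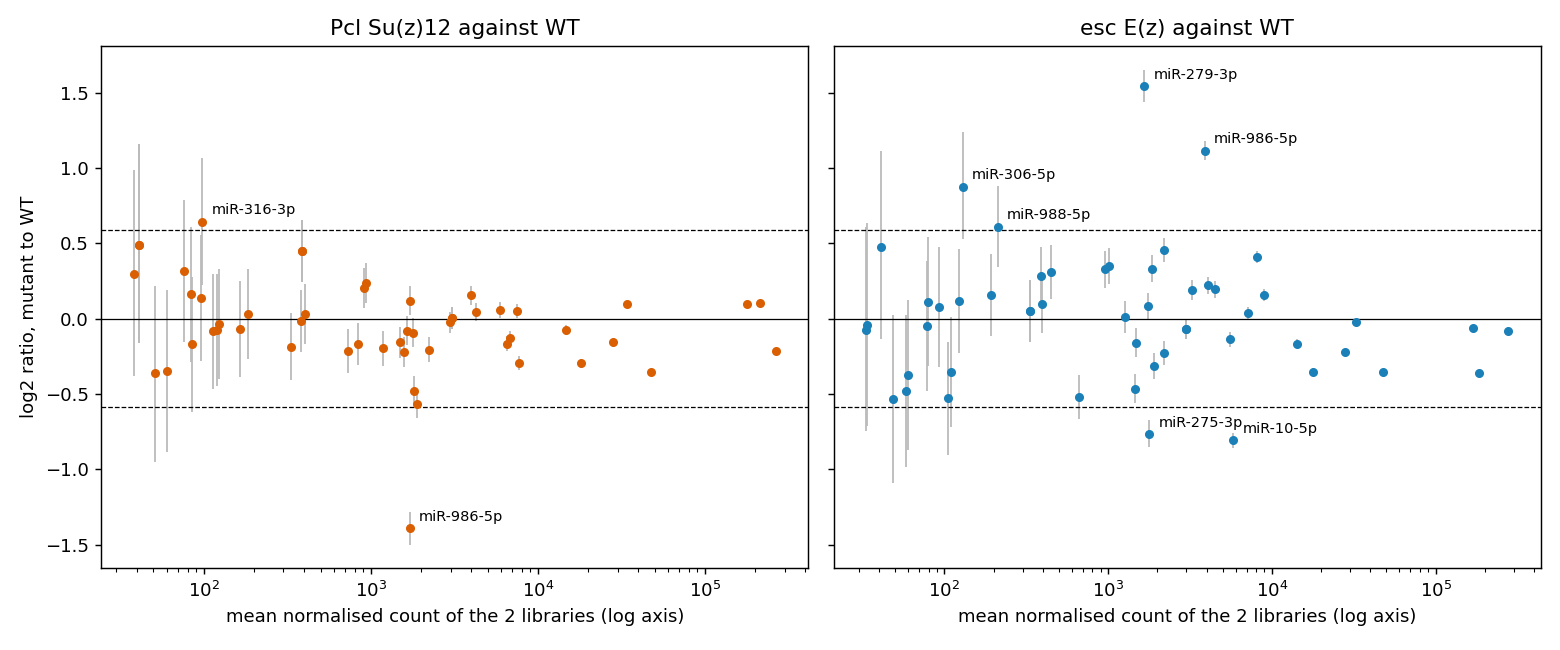
Log2 ratio of mutant to WT for the 52 miRNAs against their mean normalised count (log axis), for *Pcl Su(z)12* (left) and *esc E(z)* (right), which share the WT library; bars are 95% intervals of counting error and dashed lines mark 1.5-fold. In *Pcl Su(z)12* 2 miRNAs lie past the lines and in *esc E(z)* 6, and bars widen at low counts.

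miR-986-5p was at 2470 normalised counts in WT, 942 in *Pcl Su(z)12* and 5351 in *esc E(z)*. It was thus lowest in one mutant and highest in the other, with WT between them. The log2 ratio was -1.39 in *Pcl Su(z)12* (interval -1.50 to -1.28), 2.62-fold lower, and 1.12 in *esc E(z)* (1.05 to 1.18), 2.17-fold higher. Between the mutants the difference was 5.68-fold. These values rested on 2610, 944 and 7112 reads. The rank of miR-986-5p moved from 19 in WT to 30 and to 12, which included the largest shift of rank between libraries, 18 places. Its hairpin lies at chr2R:8444982-8445081 on the plus strand, in an intron of *Cyp4e2*, a cytochrome P450 gene. The authors' mean of *Cyp4e2* was 1015 in WT and 979 in *Pcl Su(z)12* (log2 -0.05). In the table of *esc E(z)*, which has its own WT mean, it was 700 and 604 (log2 -0.21). These means are of polyadenylated RNA from other libraries, and whether the miRNA followed its host was not tested.

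The other large values in *Pcl Su(z)12* were smaller. miR-316-3p was at 76.7, 120 and 82.8 in WT, *Pcl Su(z)12* and *esc E(z)*, a log2 ratio of 0.64 in *Pcl Su(z)12* (0.23 to 1.07) on 81 and 120 reads. miR-13b-3p, whose 2 rows hold the same reads, was at 327 in WT and 447 in *Pcl Su(z)12* (log2 0.45), and at 339 in *esc E(z)*. miR-278-5p, the listed arm of a hairpin known for energy balance in fly fat body, was at 855, 1007 and 1072, and miR-7-5p, which acts with *aop* in eye development, at 3744, 4165 and 4363. Among lower values, miR-275-3p (log2 -0.57) and miR-305-5p (log2 -0.48) lie in 1 cluster, and miR-263a-5p (-0.36) and miR-277-3p (-0.30) followed.

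In *esc E(z)*, 6 of the 52 miRNAs (11.5%) were past 1.5-fold against WT, with 4 higher and 2 lower, around a median log2 ratio of -0.0049 with quartiles of -0.25 and 0.20. The spread of the ratios was wider than in *Pcl Su(z)12*, since 27 miRNAs were within 1.2-fold against 37. This difference in spread is a description of single libraries. The miRNAs just past and just inside 1.5-fold were miR-988-5p (log2 0.61) and miR-304-5p (log2 -0.53). With the libraries scaled to the same total, all ratios in *esc E(z)* were higher by 0.15 on the log2 scale, and the count became 6 higher and 2 lower through miR-9c-5p and miR-315-5p.

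miR-279-3p had the largest ratio in *esc E(z)*. This miRNA represses the formation of CO2-sensing neurons in the fly and acts in the output of the circadian clock. It was at 850 normalised counts in WT, 978 in *Pcl Su(z)12* and 2478 in *esc E(z)*, on 898, 980 and 3294 reads. WT and *Pcl Su(z)12* lay close together and *esc E(z)* was 2.92-fold above WT (log2 1.54, interval 1.44 to 1.65). Its rank moved from 31 to 21.

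miR-10-5p, which lies between the Hox genes of the Antennapedia complex, had the lowest ratio in *esc E(z)*. It was 1.75-fold lower than WT (log2 -0.81, interval -0.86 to -0.76) and near WT in *Pcl Su(z)12* (log2 0.05). The non-coding transcript that holds its hairpin, *lncRNA:CR42651*, was hardly detected in polyadenylated RNA, with authors' means between 1.09 and 1.84. Of the 52 hairpins, 0 lay in an H3K27me3 peak region of the study, and that of miR-10 was 794 bp from the closest one. The paper called these regions in muscle of younger WT flies, and only a small minority of all genes lies in them. Few of 52 hairpins would fall there at that share, so the count says little about the mark at miRNA loci. *Scr*, the Hox gene that neighbours miR-10, was at 125 and 111 in the table of *Pcl Su(z)12* and at 75.05 and 66.9 in that of *esc E(z)*, a log2 ratio of -0.17 in each. *Ubx*, a Hox gene of the other complex, was at 119 and 126, and at 58.7 and 63.3.

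miR-275-3p, described with its cluster, was also past 1.5-fold lower in *esc E(z)*, and less abundant miRNAs followed. miR-306-5p was at 91.8 in WT, 101 in *Pcl Su(z)12* and 169 in *esc E(z)* (log2 0.88, interval 0.53 to 1.24, on 97 and 224 reads). miR-988-5p, in an intron of *Prp8*, which encodes a core splicing factor, was at 168, 161 and 257 (log2 0.61, interval 0.35 to 0.88). *Prp8* itself was at 746 and 784, and at 492 and 516. miR-1010-3p, in an intron of *SKIP*, was at 125, 122 and 86.5 (log2 -0.53, interval -0.90 to -0.16). miR-252-5p was at 781, 673 and 545 (log2 -0.52), lower in each mutant than in WT.

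When the mutants were set against each other, 6 of the 52 (11.5%) were past 1.5-fold, with 4 higher and 2 lower in *esc E(z)* than in *Pcl Su(z)12*. The higher ones were miR-986-5p (log2 2.51), miR-279-3p (1.34), miR-306-5p (0.74) and miR-988-5p (0.68). The lower ones were miR-10-5p (log2 -0.86) and miR-970-3p (-0.79), the latter at 68.1, 84.8 and 48.9 in WT, *Pcl Su(z)12* and *esc E(z)*. With equal totals the split was 7 higher and 2 lower, since let-7-5p, miR-9b-5p and miR-9c-5p passed 1.5-fold as well. This comparison does not use the WT library.

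18 of the 52 rows lay in 8 genomic clusters, in which neighbouring hairpins on 1 strand were at most 10 kb apart. Members of a cluster can be cut from 1 primary transcript, yet their levels differed by up to 29.5-fold in WT. In the plot of the clusters the members of 1 cluster lay at most 0.55 apart in *Pcl Su(z)12*, while in *esc E(z)* the members of 3 clusters lay 0.62, 0.87 and 1.92 apart on the log2 scale.

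**Figure D3:**
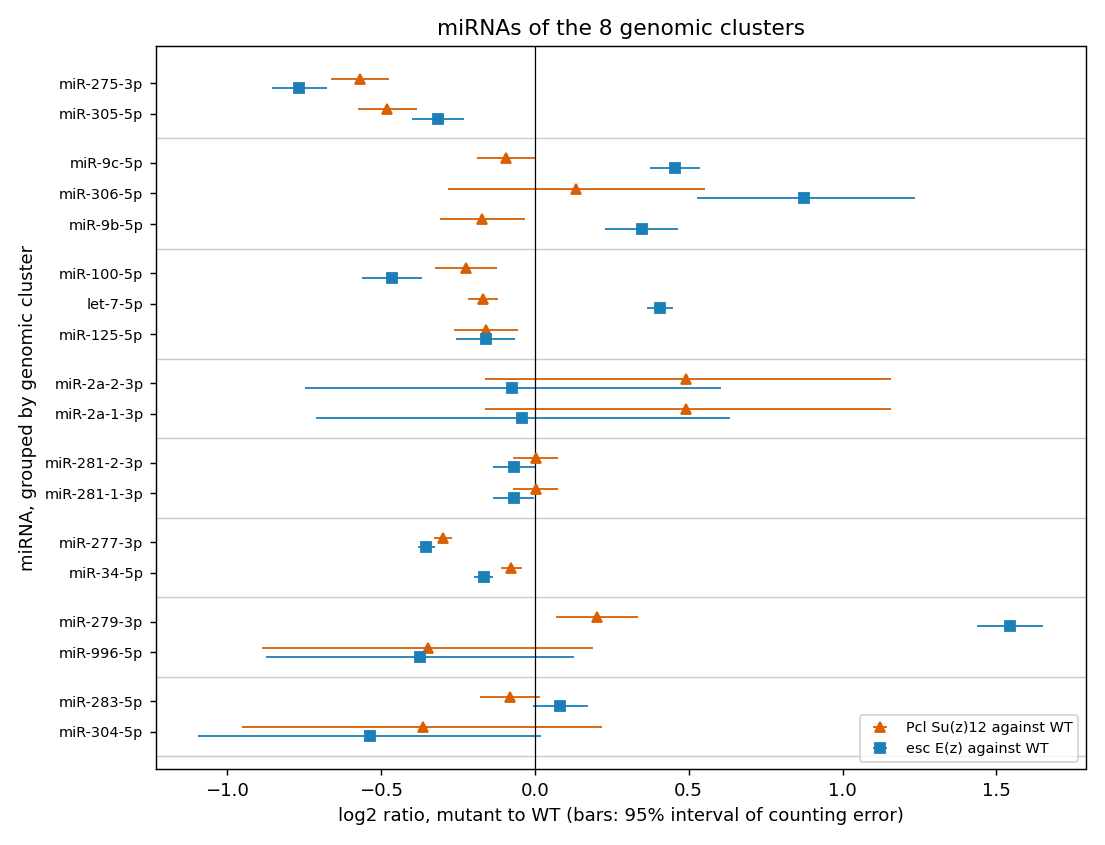
Log2 ratio of mutant to WT for the 18 miRNAs of the 8 genomic clusters, for *Pcl Su(z)12* (triangles) and *esc E(z)* (squares), with 95% intervals of counting error as bars. In *esc E(z)* let-7-5p (0.41) and miR-279-3p (1.54) lie to the right of their neighbours miR-100-5p (-0.46) and miR-996-5p (-0.37).

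The let-7 complex is a cluster of 3 hairpins within 991 bp (chr2L:18471434-18472424, plus strand) in an exon of *lncRNA:let7C*, whose miRNAs act in the remodelling of the neuromuscular system at metamorphosis. let-7-5p was at 6939 normalised counts in WT, 6179 in *Pcl Su(z)12* and 9209 in *esc E(z)*. miR-100-5p was at 1692, 1450 and 1226, and miR-125-5p at 1571, 1408 and 1407. In *Pcl Su(z)12* the 3 log2 ratios lay between -0.22 and -0.16. In *esc E(z)* let-7-5p was higher than WT (log2 0.41, interval 0.37 to 0.45) and miR-100-5p lower (-0.46, interval -0.56 to -0.37), with miR-125-5p at -0.16. let-7-5p was 4.42-fold above the lowest member in WT, which was miR-125-5p, and 7.51-fold above the lowest in *esc E(z)*, which was miR-100-5p. The host transcript was at 22.6 and 22.3 in the table of *Pcl Su(z)12*, and at 15.6 and 10.4 in that of *esc E(z)*.

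miR-275 and miR-305 lie 80 bp apart (chr2L:7425795-7426044, plus strand), and both listed arms were lower in both mutants than in WT. miR-305-5p acts in the intestinal stem cells of flies. miR-275-3p was at 2244 in WT, 1515 in *Pcl Su(z)12* and 1320 in *esc E(z)*, and miR-305-5p was at 2122, 1523 and 1706. The log2 ratios were -0.57 (interval -0.66 to -0.47) and -0.48 (-0.57 to -0.38) in *Pcl Su(z)12*, and -0.77 (-0.85 to -0.68) and -0.31 (-0.40 to -0.23) in *esc E(z)*. The transcript *lncRNA:CR43857*, which holds the hairpin of miR-275 in an exon, was at 27.8 in WT and 11.4 in *Pcl Su(z)12* (log2 -1.29), and at 9.59 and 7.26 in the table of *esc E(z)* (log2 -0.40).

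miR-277 and miR-34 lie 815 bp apart (chr3R:10100022-10101034, plus strand) in exons of *lncRNA:CR43459*. In *Pcl Su(z)12* miR-277-3p had a log2 ratio of -0.30 (interval -0.33 to -0.27) and miR-34-5p of -0.08 (-0.11 to -0.04). In *esc E(z)* the values were -0.35 (-0.38 to -0.32) and -0.17 (-0.20 to -0.13). The host transcript was at 175 in WT and 113 in *Pcl Su(z)12* (log2 -0.63), and at 78.5 and 66.1 in the table of *esc E(z)* (log2 -0.25). With the deposited size factors, the mature RNAs and the transcript were on the same side of WT in each mutant. With the libraries scaled to the same total, the log2 ratio of miR-34-5p was -0.02 in each mutant, close to equality.

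miR-279 and miR-996 lie 1500 bp apart in exons of *lncRNA:CR31044*, and this was the cluster with the widest split. miR-996-5p was at 67.2 in WT, 52.9 in *Pcl Su(z)12* and 51.9 in *esc E(z)* (log2 -0.37 in *esc E(z)*, interval -0.87 to 0.13), where miR-279-3p had a log2 ratio of 1.54. The arms listed are opposite ones, 3p of miR-279 and 5p of miR-996. Since the 3p arm of miR-996 is not listed, the split sets unlike arms side by side. It does not show that like arms of these hairpins differed. The host transcript was at 18.4 and 13.6 in the table of *Pcl Su(z)12*, and at 6.97 and 5.73 in that of *esc E(z)*. The means in the *esc E(z)* table are low and have no SD, and whether the host differed there was not tested.

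miR-9c, miR-306 and miR-9b lie within 911 bp in an intron of *grp* (chr2L:16697924-16698834, plus strand), the fly checkpoint kinase gene. In *esc E(z)* all 3 were higher than WT, with log2 ratios of 0.45 for miR-9c-5p, 0.88 for miR-306-5p and 0.35 for miR-9b-5p. In *Pcl Su(z)12* they were at -0.09, 0.14 and -0.17. miR-9c-5p was at 1846, 1732 and 2530 normalised counts, and miR-9b-5p at 890, 791 and 1132, so *esc E(z)* was the highest library for each. *grp* itself was at 140 and 159 in the table of *Pcl Su(z)12* (log2 0.19), and at 104 and 122 in that of *esc E(z)* (log2 0.22).

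The remaining clusters showed small differences or few reads. miR-283-5p was at 1702, 1611 and 1803, and miR-304-5p, 904 bp away in the same intron of *Gmap*, was at 57.7, 44.9 and 39.9. miR-281-3p was at 3050 in WT, 3056 in *Pcl Su(z)12* and 2909 in *esc E(z)*, in an intron of *Oda*, which encodes the fly antizyme, whose own means of 13107 to 19577 were within 1.2-fold of WT. miR-2a-3p, from 2 hairpins in an intron of *spi*, was at 34.1, 47.9 and 33.1, on 36 to 48 reads.

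The counts of miRNAs with the same seed were summed over distinct sequences. The miR-2 family summed to 4682 normalised counts in WT, 4937 in *Pcl Su(z)12* and 5274 in *esc E(z)*, and miR-11-3p held 89.7%, 87.6% and 91.1% of it. The miR-9 family summed to 11241, 9456 and 13135, a log2 ratio of -0.25 (interval -0.29 to -0.21) in *Pcl Su(z)12* and 0.22 (0.19 to 0.26) in *esc E(z)*. miR-9a-5p, from another locus than the pair in *grp*, held 75.7% of it in WT. The seed of miR-275-3p and miR-306-5p summed to 2336, 1616 and 1489, which was lower in both mutants although miR-306-5p alone was higher in *esc E(z)*.

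The transcripts that hold the hairpins could be read in the mRNA tables for 36 of 44 host genes. The authors aligned those reads to dm6, counted them without regard to strand and gave means of other libraries. The level of a host that overlaps another gene is therefore uncertain. Among the 32 hosts with a mean of at least 10 in *Pcl Su(z)12* and its WT, 1 was higher and 2 lower past 1.5-fold, against 4.95% of all 9349 genes at that level. Higher was *lncRNA:CR44206*, the transcript of miR-184 (29.8 and 49.0). Lower were *lncRNA:CR43857* and *lncRNA:CR43459*. Among the 28 hosts in *esc E(z)*, 1 was higher and 1 lower, against 4.34% of 8968 genes. These were *meru*, the host of miR-263b (10.9 and 17.0), and *asRNA:CR17025*, the host of miR-252 (17.5 and 9.48). The means of both are low, and *asRNA:CR17025* reached a mean of at least 10 only through its higher value in WT. The count of 1 lower host therefore says nothing about the hosts.

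**Figure D4:**
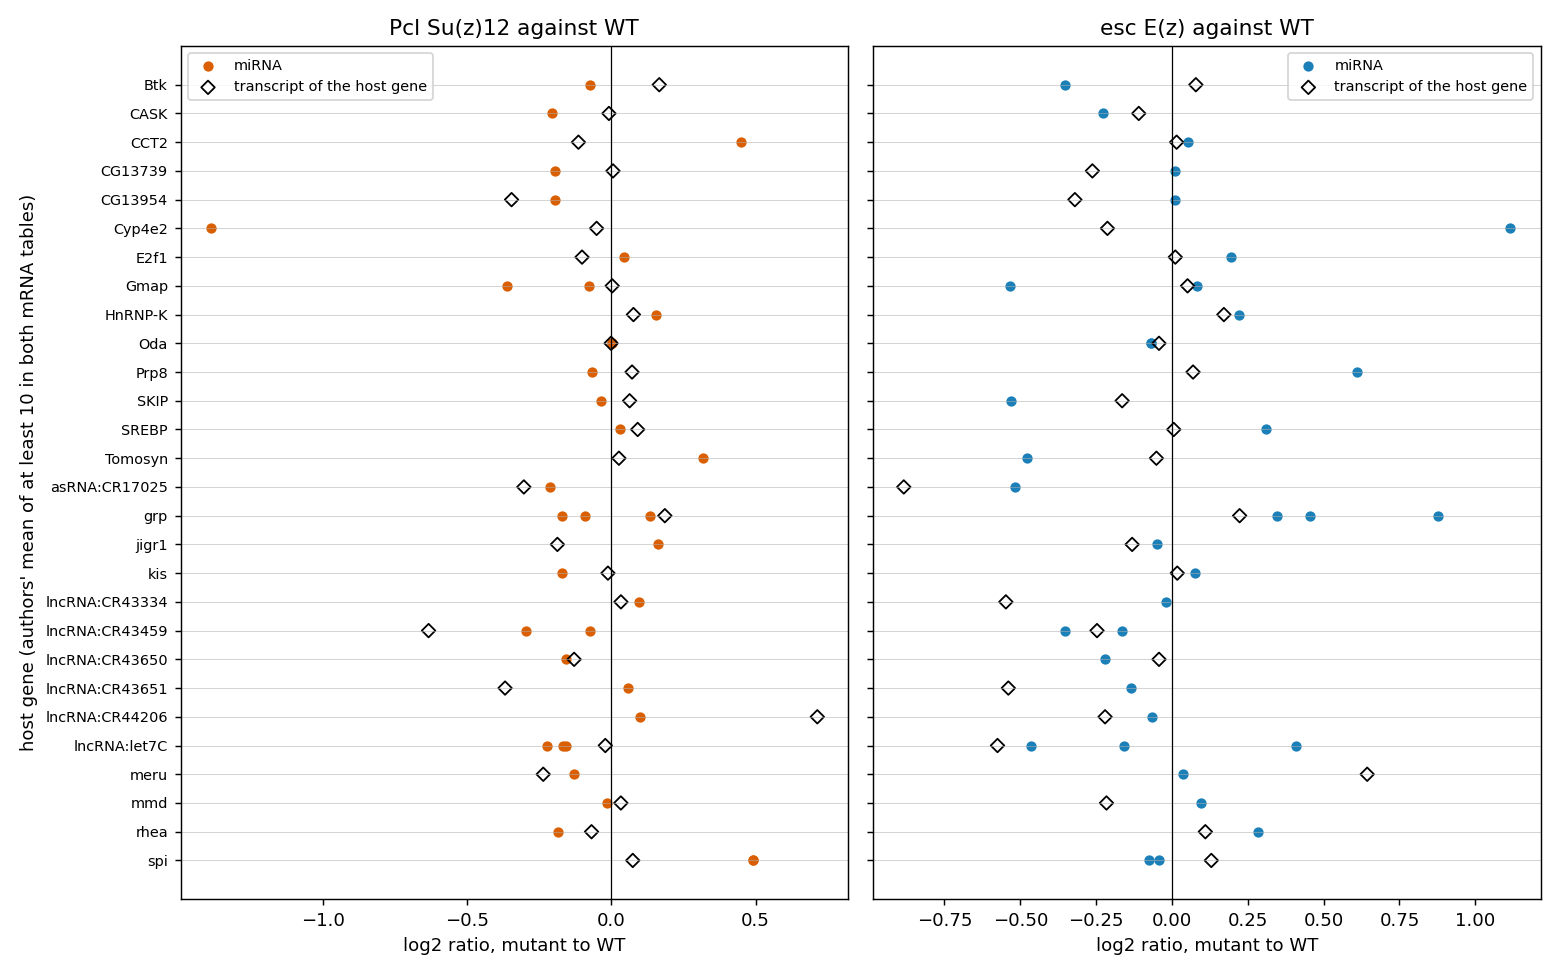
Log2 ratio of mutant to WT for 28 host genes (open diamonds, from the authors' mRNA means) and for the miRNAs in them (filled circles, small RNA), for *Pcl Su(z)12* (left) and *esc E(z)* (right), with separate scales. The circle of miR-986-5p lies at -1.39 and at 1.12, while the diamond of its host *Cyp4e2* lies at -0.05 and -0.21.

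Several intronic miRNAs and their hosts were within 1.5-fold of WT. miR-11-3p was at 4197, 4325 and 4806, in an intron of *E2f1*, which was at 1091 and 1016, and at 637 and 642. miR-33-5p, which acts in lipid metabolism, was at 400, 408 and 496, in an intron of *SREBP* (3928 and 4183, and 2797 and 2809). miR-190-5p was at 352, 309 and 428, in an intron of *rhea*, the fly talin gene that anchors muscle to tendon (5640 and 5375, and 3830 and 4134). miR-7-5p lies in an intron of *HnRNP-K*, which was at 618 and 652, and at 496 and 559. miR-133-3p, a muscle miRNA in vertebrates, had no host on its strand and was at 182, 186 and 202.

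The factors that make and load miRNAs were read in the same tables. Of the 12 genes of the biogenesis list, 0 were past 1.5-fold in either table, where 4.95% and 4.34% of all genes with a mean of at least 10 were. At 1.2-fold, 0 of 12 were past it in *Pcl Su(z)12*, against 19.3% of all genes, and 2 of 12 in *esc E(z)*, against 19.8%, a share near that of all genes. *drosha*, the nuclear nuclease, was at 164 and 154, and at 111 and 103, and its partner *pasha* was at 88.8 and 99.0, and at 65.2 and 53.5 (log2 -0.28). *Ranbp21*, the exportin of the hairpins, was at 195 and 192, and at 139 and 156. *Dcr-1*, the cytoplasmic nuclease, was at 189 and 202, and at 133 and 136, and its partner *loqs* was at 370 and 364, and at 240 and 249. *AGO1*, which binds the miRNAs, was at 1564 and 1578, and at 868 and 866, and *gw*, the effector that it recruits, was at 2814 and 2803, and at 1834 and 1748. *Nbr*, which trims the ends of miRNAs such as miR-34, was at 233 and 236, and at 169 and 172. Of the genes of the siRNA branch, *Dcr-2*, *r2d2* and *Hen1* were within 1.2-fold, and *AGO2* was at 2476 and 2102 (log2 -0.24), and at 1690 and 1289 (log2 -0.39).

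The mutated genes were read in the same mRNA tables, since small RNA does not show them. *esc* was at 25.6 in WT and 11.2 in *esc E(z)* (log2 -1.19), and *E(z)* at 141 and 118. *Pcl* was at 125 and 125, and *Su(z)12* at 230 and 225, in WT and *Pcl Su(z)12* in that order, so this table did not show the deletions at the level of whole transcripts.

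The list held 10 genes known in flies as targets of these miRNAs or as neighbours of Hox miRNAs. In *Pcl Su(z)12*, 2 of the 9 with a mean of at least 10 were past 1.2-fold, against 19.3% of all genes. *rpr*, 1 of these 2, reached that mean only through its value in the mutant. In *esc E(z)* the count was 1 of 8, against 19.8%. The longest annotated 3′ UTR of these genes was searched on the transcript's strand for the 7 bases that pair with the seed, where such letters could be read. *hid*, the cell death gene that bantam represses, held TGATCTC 5 times in 2266 bases. At least 1 match was present in 1.82% of the 13546 3′ UTRs. Such shares are over 3′ UTRs of all lengths and count presence only, so they are no measure for the number of matches in a long 3′ UTR. A pair of these matches, in capitals, lay at chr3L:18168994-18169009 and chr3L:18168964-18168979 on the minus strand (dm6, RefSeq), and is shown because they lie closest together.
first match in hid: cacattaaTGATCTCt
second match in hid: atgaaaatTGATCTCc

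*hid* was at 122 in WT and 122 in *Pcl Su(z)12*, and at 68.1 and 72.9 in the table of *esc E(z)*, beside a bantam-3p ratio of 0.09 and -0.02. *ab*, a target of let-7 in the neuromuscular system, held CTACCTC 2 times (0.952% of 3′ UTRs hold it) and was at 136 and 131, and at 95.2 and 95.6, where let-7-5p had a log2 ratio of 0.41. *Eip74EF*, the target of miR-34 in the aging fly, held CACTGCC 2 times (2.41%) and was at 207 and 188, and at 130 and 135. *ush*, a target of miR-8, held 1 match to the seed of miR-8 (3.44%) and was at 168 and 154, and at 119 and 117. In these windows *rpr* and *grim* held 0 matches to CTGTGAT of the miR-2 family (2.65%). *Delta* held 0 matches to ACATTCC of miR-1 (3.34%), *Scr* 0 to TACAGGG of miR-10 (0.716%) and *aop* 0 to the seed of miR-7 (1.47%). Pairing with only part of the seed was not searched, so 0 matches does not mean that a gene holds no site.

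*rpr*, a target of the miR-2 family, was at 7.11 in WT and 16.5 in *Pcl Su(z)12*, and at 7.11 and 7.43 in the table of *esc E(z)*. It was the 1 target past 1.5-fold of the 9 with a mean of at least 10 in the first table, where 4.95% of all genes were. Its WT value is under 10, so it was among the 9 only through its higher value in the mutant. The count of 1 of 9 therefore says nothing about the targets. In the table of *esc E(z)* 0 of 8 were past 1.5-fold, against 4.34% of all genes. *grim* was under 3 in every group. *Delta*, a target of miR-1, was at 64.6 and 78.0 (log2 0.27), and at 38.7 and 52.9 (log2 0.45), beside miR-1-3p ratios of -0.21 and -0.08. *aop*, a target of miR-7, was at 479 and 482, and at 280 and 320.

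The miRNAs not yet described were within 1.5-fold of WT in both mutants. Among them, miR-263b-5p was at 7099, 6488 and 7273, and miR-14-3p, which limits cell death and fat storage in flies, at 5786, 6020 and 5264. miR-957-3p was at 3021, 2967 and 3440, miR-999-3p at 2377, 2061 and 2028, and miR-375-3p at 1637, 1779 and 2060. miR-987-5p was at 1260, 1100 and 1269, and miR-927-5p at 382, 378 and 409. For each of these the mutants were within 1.5-fold of each other as well. The lowest rows, miR-2b-1-3p, miR-87-3p, miR-965-5p, miR-92b-3p and miR-315-5p, lay between 34.1 and 127 normalised counts, with log2 ratios from -0.35 to 0.48 whose intervals included equality in both mutants.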

How the data were processed

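Small RNA of 20 to 29 nt from 30d muscle was made into libraries with a NEBNext small RNA kit. The authors' deposited tables hold normalised counts, a signal made of read counts divided by 1 size factor per library. For mRNA, the deposited tables give the authors' mean normalised counts per group of polyadenylated RNA libraries, with no SD, and each table has its own WT mean. The submitters' processing notes name dm6, STAR, HTSeq and DESeq. The aligner and miRNA annotation of the small RNA are not given in the sources used here. The fold change and p-value columns of the authors were not used.

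Each value divided by its library's step (0.946, 0.998 and 0.752) gave a whole number of reads within 0.01 for 52 of 52 rows per library. From these reads, exact Clopper-Pearson intervals (95%) of the ratios were computed. The size factors are not the median ratios over these 52 rows, so they were set on other rows or in another way. Hairpins were matched to RefSeq by name, 52 of 52, and mRNA genes by identifier or synonym.

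Members and lists were chosen with earlier results of these data known. Named were the 10 most abundant miRNAs, in each comparison with WT the 5 highest and 5 lowest ratios at a mean of at least 100, clusters, miRNAs in Hox complexes, hosts, processing factors and targets. The mean of at least 100 was taken over the 2 compared libraries. In *esc E(z)* against WT, miR-306-5p reached it only through the mutant and miR-1010-3p only through WT. Equal totals, a fold of 2, a mean of at least 100, 1 added to counts and a cluster distance of 1 kb were alternatives. Interval and read recovery were tried on simulated reads that held counting error only, so this trial says nothing about PCR copies or spread between libraries. Computing used scipy 1.17.1 and pandas 2.3.3 with numpy 2.4.6 under Python 3.11.15, and plots were drawn with matplotlib 3.10.9.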

Additional observations from a re-analysis of the deposited data

Results flagged for a closer look

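miR-986-5p stood out because it was past 1.5-fold in opposite directions in the mutants, with a log2 ratio of -1.39 in *Pcl Su(z)12* and 1.12 in *esc E(z)* against the same WT library. Each value is from 1 library, and the difference between the mutants was not tested.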

How the results depend on the processing

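With 1 library per genotype nothing could be left out, and the intervals hold counting error only. No paired analysis was possible because each genotype has 1 library. At a fold of 2, the counts were 1 in *Pcl Su(z)12*, 2 in *esc E(z)* and 2 between the mutants, in place of 2, 6 and 6, and at a mean of at least 100 the count in *Pcl Su(z)12* was 1, since miR-316-3p fell under it, and that between the mutants was 5, without miR-970-3p. With equal totals the median log2 ratio in *esc E(z)* became 0.14, a shift of 0.15. The summed normalised counts of that library differed from WT by -9.69% at the deposited scaling. The counts past 1.5-fold with equal totals were 2, 8 and 9. Without miR-1-3p the share of the 10 most abundant was 90.9% in WT, 91.6% in *Pcl Su(z)12* and 89.4% in *esc E(z)*. At 1.2-fold 2 biogenesis genes, *pasha* and *AGO2*, were lower in *esc E(z)*, against 0 at 1.5-fold. With clusters at 1 kb, 16 rows in place of 18 were clustered, without miR-279 and miR-996. Of the 68 log2 ratios of 34 named miRNAs, 68 stayed within their counting interval when 1 was added, and 36 left it with equal totals, with no reversal of one past 1.5-fold. Size factors from the median ratio over the 52 rows and 1 row per mature sequence, both chosen after seeing the data, gave counts of 2, 6 and 6.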
